A study of Mus musculus with 4 samples.

Results

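The loss of Fundc1 without any hypoxic challenge was described in mouse lung by comparing the single-cell library of normoxic FUNDC1 knockout mice with that of normoxic wild-type mice. Every cell barcode of these 2 libraries belonged to the comparison, which gave 16813 of the 25982 cells of the whole series, 7649 from the wild-type library and 9164 from the knockout library. Each library pooled cells of 5 mice aged 11 weeks. Both groups received the vehicle and were kept in normal oxygen, whereas the mice of the other 2 libraries were exposed to hypoxia with 3 weekly doses of SU5416, a VEGF receptor inhibitor. The title of the series speaks of endothelial FUNDC1 deficiency, but the labels do not state in which cells the gene was deleted, nor the strain or sex of the mice. With 1 pooled library a side, no test between genotypes was possible, and genotype cannot be told apart from anything else that differed between the 2 preparations.

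FUNDC1 is a protein of the outer mitochondrial membrane that binds LC3 through a motif facing the cytosol and so recruits the autophagy machinery to mitochondria, a process called mitophagy. It acts beside other mitophagy receptors such as BNIP3 and BNIP3L (also called NIX), and beside the PINK1-Parkin route, in which the kinase PINK1 builds up on damaged mitochondria and marks them with phosphorylated ubiquitin. FUNDC1 has been studied mostly in hypoxia and in tissues rich in mitochondria. In the lung, pulmonary hypertension is the setting in which its loss was examined by this series.

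Levels below are in CPM, the usual counts-per-million scale: the unique molecular identifiers (UMIs) of a gene, added up over all cells of the class, were scaled by the class total over all genes. A difference is the ratio of knockout to wild-type CPM with an exact 95% interval that covers counting error only, not the spread between mice or between preparations. A gene is said to have risen or fallen in a class when its ratio was at least 1.5-fold in either direction, the interval excluded 1, and the pair held at least 30 UMIs. Cells were grouped by marker genes, and each class name means cells like that type by those markers.

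The wild-type library held 62747087 UMIs and the knockout library 63501686, at a median of 6311 and 5355 UMIs a cell. The smallest deposited cell had 3775 and 3182 UMIs respectively. Cells carrying markers of more than 1 lineage were removed, 29.2% of the wild-type and 33.7% of the knockout cells, which left 5413 and 6073. The 2 libraries had 70 cell barcodes in common. 12 classes had at least 50 cells in both libraries, with 54 to 1582 wild-type and 71 to 1794 knockout cells. Alveolar type 1, ciliated, plasma, plasmacytoid dendritic, lymphatic endothelial and migratory dendritic cells were too few. The clusters were named with these marker lists, so the lists are no separate check of the names. The endothelial list summed to 18891 CPM in wild-type and 21489 CPM in knockout vascular endothelial cells. In the other classes it reached at most 209 and 285 CPM. The alveolar type 2 list summed to 315818 and 321458 CPM in alveolar type 2 cells, and to at most 9927 and 17759 CPM elsewhere. The classical monocyte list did not separate its class, since it summed to 15841 CPM in knockout alveolar macrophages and 14647 CPM in knockout classical monocytes. In every class the knockout cells had a lower median share of mitochondrial UMIs, for example 1.12% against 1.69% in alveolar macrophages and 1.97% against 2.54% in alveolar type 2 cells.

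Fundc1 itself was nearly gone from the knockout library. Over all kept cells it stood at 43.5 CPM (1889 UMIs) in wild type and at 0.986 CPM (41 UMIs) in the knockout, a 44.1-fold lower level with a counting interval of 32.4 to 61.7. Of knockout cells, 0.510% still had a Fundc1 UMI. The gene lies at chrX:17556564-17572325 on the minus strand (GRCm38). In wild type, its level was lowest in vascular endothelial cells, at 23.6 CPM from only 8 UMIs, and highest in conventional dendritic cells, at 65.5 CPM from 107 UMIs. T and natural killer cells, neutrophils, B cells and club cells were close to the lowest level, at 24.9 to 25.9 CPM. Fundc1 fell in 9 of the 9 classes with at least 30 UMIs over the pair.

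The loss of Fundc1 was not limited to endothelial cells. In alveolar macrophages Fundc1 went from 51.6 to 1.10 CPM, which is 46.9-fold lower (30.1 to 77.1). In alveolar type 2 cells it went from 31.9 to 0.756 CPM, 42.2-fold lower (17.8 to 131). In classical monocytes it went from 46.5 to 1.73 CPM, 26.9-fold lower. Leukocytes and epithelial cells alike had lost the transcript in the knockout library. Vascular endothelial cells held 8 UMIs in wild type and 1 in the knockout, 23.6 against 1.65 CPM, so that their 14.3-fold difference has an interval from 1.92 to 634. No Fundc1 UMI was left in knockout fibroblasts, neutrophils or B cells, against 30, 13 and 17 in wild type. Taking 3 UMIs as the most a count of 0 allows, these levels were at least 13.9-fold, 2.76-fold and 5.76-fold lower, and the lower ends of the exact intervals, which also cover counting error in wild type, were 10.6-fold, 1.94-fold and 4.20-fold.

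**Figure D1:**
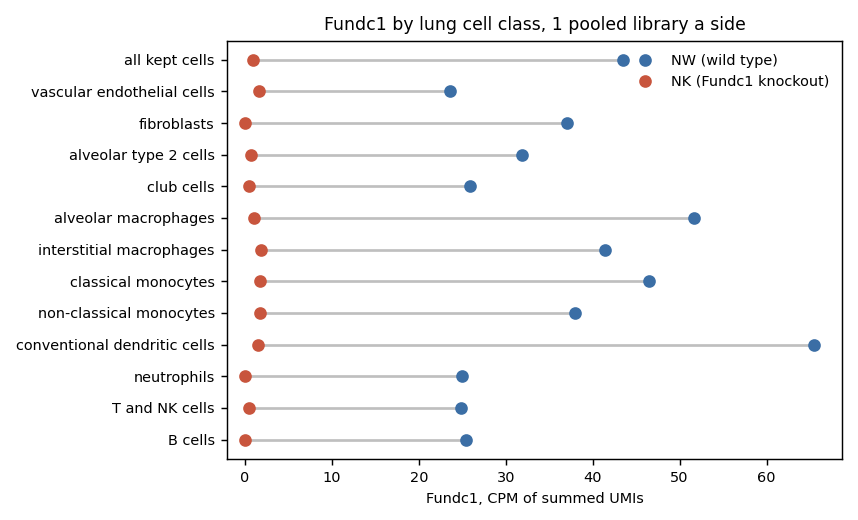
Fundc1 level in CPM in each lung class and over all kept cells, for the wild-type (NW, blue) and the knockout (NK, red) library, joined by a line. Wild-type levels of the classes lie between 23.6 and 65.5 CPM, and no knockout class is above 1.91 CPM.

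Genes within 2 Mb of Fundc1 on the X chromosome differed by less than 1.5-fold. Maoa, which encodes monoamine oxidase A, was at 14.8 CPM in wild type and 17.5 in the knockout (ratio 1.19, interval 1.07 to 1.32). Maob, encoding monoamine oxidase B, was at 21.0 CPM in both (0.997, 0.908 to 1.10). Kdm6a, a histone demethylase gene, was at 19.7 and 23.9 CPM (1.21, 1.11 to 1.33). A list of 6 sex-linked genes (Xist, Tsix, Ddx3y, Eif2s3y, Kdm5d and Uty) had a median log2 ratio above 0 in 11 of 12 classes. The medians ran from -0.01 in alveolar type 2 cells to 0.80 in non-classical monocytes. Of its 34 pairs of a gene and a class, 20.6% rose and 2.94% fell, where 9.07% and 4.52% of all pairs did. Xist and Tsix lie on the X chromosome and the other members on the Y chromosome. Joint values of the list therefore do not describe the sex make-up of a pool, which was not tested.

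Monocytes took a smaller share of the knockout library. Classical monocytes made up 29.2% of kept wild-type cells (28.0 to 30.5) and 17.2% of knockout cells (16.3 to 18.2), a 1.70-fold lower share. Non-classical monocytes, the patrolling monocytes, made up 3.93% and 2.19%, a 1.80-fold lower share (1.44 to 2.25). Alveolar macrophages went from 21.8% to 29.5% (ratio 1.36, 1.26 to 1.46), and T and natural killer cells from 4.60% to 6.55% (1.43, 1.21 to 1.68). Vascular endothelial cells were 0.998% and 2.27% (2.28, 1.65 to 3.18), club cells 1.64% and 2.59% (1.57, 1.21 to 2.06), and fibroblasts 2.86% and 3.97% (1.39, 1.13 to 1.71). The intervals of the ratio included 1 for alveolar type 2 cells (0.960 to 1.13), interstitial macrophages (0.628 to 1.12), conventional dendritic cells (0.729 to 1.08), neutrophils (0.547 to 1.06) and B cells (0.803 to 1.33). The UMI minimum of each deposited library and the removal of mixed cells both bear on these shares. With the same UMI minimum of 3775 in both libraries the fibroblast ratio was 1.09 and the neutrophil ratio 0.497.

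**Figure D2:**
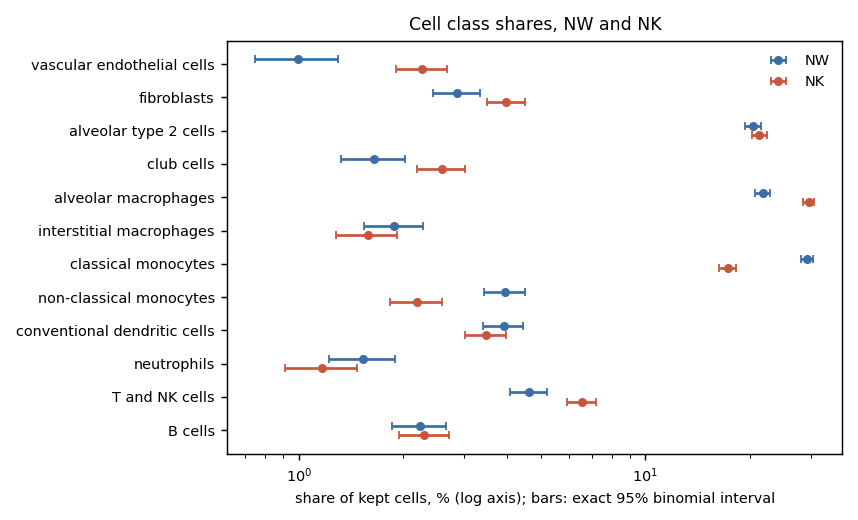
Share of kept cells in each class, in percent on a logarithmic axis, for the wild-type (NW) and the knockout (NK) library with 95% Clopper-Pearson intervals. Classical monocytes are the class with the highest share in wild type (29.2%), and alveolar macrophages in the knockout (29.5%).

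In most classes, the share of measured genes that rose was between 5.28% (alveolar macrophages) and 11.4% (B cells). It was 7.63% in vascular endothelial cells, 6.01% in fibroblasts, 5.85% in alveolar type 2 cells, 10.2% in interstitial macrophages, 6.47% in classical monocytes, 9% in non-classical monocytes, 9.49% in conventional dendritic cells, 8.67% in neutrophils and 9.06% in T and natural killer cells. Club cells stood apart with 23.9% up and 1.36% down. In the other classes the share that fell was 5.92% in vascular endothelial cells, 4.57% in fibroblasts, 2.46% in alveolar type 2 cells, 3.26% in alveolar macrophages, 7.57% in interstitial macrophages, 3.86% in classical monocytes, 7.29% in non-classical monocytes, 5.56% in conventional dendritic cells, 7.57% in neutrophils, 4.2% in T and natural killer cells and 6.23% in B cells. These percentages are the background against which the counts of classes below are read.

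Club cells had a median log2 ratio over all genes of 0.39, against 0.01 to 0.10 in the other 11 classes. Their secretory markers, which include the secretoglobins, summed to 608267 CPM in wild type and 510971 CPM in the knockout, so that genes outside this list held more of the UMIs in knockout club cells. Scaling by trimmed means (TMM) moved the club median to -0.01, and club cells then had 473 genes up and 504 down. Club cell ratios below are to be read against that median of 0.39. The class also depended on the clustering. With these 2 libraries clustered alone, 53 wild-type and 75 knockout cells were named club cells, against 89 and 157. Their median was then 0.28, with 16.5% of genes up and 2.37% down. Over all classes, 66.8% of the genes past the fold were higher in the knockout, and 50.5% were under TMM scaling.

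Of 7986 genes measured in at least 6 classes, 53 (0.664%) rose in most of the classes where they were measured and 16 (0.2%) fell in most of them. Shifts of 1 class, past the fold there and with an interval apart from that of every other class, numbered 23 upward (0.288%) and 11 downward (0.138%). With TMM scaling 33 genes rose and 30 fell in most classes, and with Scrublet doublet calls in place of the rule on mixed cells 85 rose, of which 18 were among the 53. Classes share their library, so agreement between them is not replication.

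The gene that rose in the most classes was Dnaja1, a cytosolic HSP40 co-chaperone of HSC70 (chr4:40722150-40737149, plus strand). Wild-type levels ran from 70.2 CPM in club cells to 257 CPM in vascular endothelial cells, and knockout levels from 198 CPM in alveolar macrophages to 485 CPM in vascular endothelial cells. Dnaja1 rose in 11 of 12 classes, with a median log2 ratio of 0.89. The ratio was 1.76 in alveolar macrophages (1.66 to 1.87), 1.84 in alveolar type 2 cells (1.70 to 1.99) and 2.08 in conventional dendritic cells (1.78 to 2.44). It was 1.89 in vascular endothelial cells (1.48 to 2.43) and 3.06 in club cells (2.52 to 3.73). Fibroblasts were the class that did not pass, at 224 and 322 CPM (1.44, 1.20 to 1.73). Dnaja1 was therefore higher in the knockout in all 12 classes, immune, epithelial and stromal. It rose in 10 or 11 classes under each alternative in processing other than a 2-fold limit, where it passed in 5.

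Hsph1, the HSP110 nucleotide exchange factor that works with HSP70 (chr5:149614287-149636376, minus strand), rose in 8 of the 11 classes where it was measured, with a median log2 ratio of 1.39. In T and natural killer cells it went from 43.9 to 154 CPM (3.50, 2.68 to 4.63). In fibroblasts it went from 14.8 to 63.0 CPM (4.25, 2.29 to 8.62), and in conventional dendritic cells from 37.3 to 104 CPM (2.79, 2.05 to 3.84). Alveolar macrophages (40.4 and 48.5 CPM), club cells (54.9 and 67.6 CPM) and interstitial macrophages (35.7 and 53.4 CPM) did not pass. With at least 100 UMIs asked over the pair, Hsph1 passed in 4 classes.

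Both genes belong to a list of 14 heat shock chaperones. The median of this list was above 0 in 12 of 12 classes, also under TMM scaling. Without TMM scaling, it ran from 0.13 in fibroblasts to 0.76 in club cells. Of 160 pairs of a list gene and a class, 28.8% were up and 5.00% down, where 9.07% and 4.52% of all 96588 pairs were. The members did not move alike. Chordc1, a co-chaperone of HSP90, rose in 5 of 12 classes, and Dnajb1, an HSP40 gene, rose in 5 and fell in 1 (fibroblasts, 233 to 152 CPM). Hspa8, which encodes the constitutive chaperone HSC70, was higher in 12 of 12 classes with a median log2 ratio of 0.50 and passed the fold in 2. The small heat shock protein gene Hspb1 fell in 4 of 10 classes (median log2 ratio -0.66), and Hspe1, the mitochondrial HSP10 gene, fell in 2 of 12. Hspa1a, an inducible HSP70 gene, rose in 2 classes and fell in 1.

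Heat shock factors bind repeats of the unit GAA in alternating orientation. The promoters of the 2 chaperone genes that rose in the most classes follow (RefSeq, GRCm38.p6, 250 bases before to 50 after the transcription start, 5′ to 3′ on the gene's strand). Capitals mark the matches. For Hsph1, at chr5:149636287-149636586 on the minus strand, the capitals mark the motif GAANNTTCNNGAA on the opposite strand (TTCNNGAANNTTC), 36 bases past the start. For Dnaja1, at chr4:40722218-40722517 on the plus strand, they mark the motif GAANNTTC, 124 bases upstream of the start.
Hsph1: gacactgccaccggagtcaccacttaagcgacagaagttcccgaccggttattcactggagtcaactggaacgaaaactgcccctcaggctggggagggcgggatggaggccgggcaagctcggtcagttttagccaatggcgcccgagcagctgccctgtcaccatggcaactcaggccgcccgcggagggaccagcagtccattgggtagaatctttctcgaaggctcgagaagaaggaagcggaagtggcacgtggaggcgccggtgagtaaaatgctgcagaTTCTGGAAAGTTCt
Dnaja1: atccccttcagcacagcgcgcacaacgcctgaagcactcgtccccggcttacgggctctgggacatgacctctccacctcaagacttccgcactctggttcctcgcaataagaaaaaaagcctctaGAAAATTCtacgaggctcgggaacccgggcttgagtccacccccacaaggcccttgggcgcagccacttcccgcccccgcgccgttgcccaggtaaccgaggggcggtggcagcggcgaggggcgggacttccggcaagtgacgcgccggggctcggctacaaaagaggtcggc
The longer motif contains the shorter one, and both strands were searched. The longer motif was found in 198 of 32851 RefSeq mouse promoters of this window (0.603%), or in 179 of 27025 genes (0.662%). Among the 11 list genes with a promoter it was found in 4 (Hsph1, Hspd1, Hspe1 and Chordc1). The shorter was found in 2582 promoters (7.86%), or in 2442 genes (9.04%), and in 9 of these 11 genes, Dnaja1 among them. A match describes letters and is no evidence of binding in these cells: Hspe1 holds the longer motif and fell in 2 classes, while Hsph1 rose in 8.

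Genes known to be induced by glucocorticoids formed the list with the largest share of risen pairs among the 28 lists. Of 176 pairs, 34.1% were up and 0.568% down, where 9.07% and 4.52% of all pairs were. The list median was above 0 in 11 of 12 classes, from -0.06 in B cells to 0.66 in vascular endothelial cells (10 of 12 classes under TMM scaling). Klf9, a Krüppel-like transcription factor, rose in 9 of 10 classes: it went from 183 to 399 CPM in vascular endothelial cells (2.18, 1.65 to 2.94), from 296 to 446 CPM in fibroblasts (1.51, 1.29 to 1.76) and from 16.5 to 48.4 CPM in conventional dendritic cells (2.93, 1.84 to 4.78). Fkbp5, an immunophilin that dampens the glucocorticoid receptor, rose in 7 of 10 classes. Its level in alveolar macrophages was 56.1 and 123 CPM (2.20, 2.03 to 2.38), and in classical monocytes 22.5 and 58.0 CPM (2.58, 2.16 to 3.08). In T and natural killer cells, the class with the highest Fkbp5 level, it was 87.8 and 130 CPM and did not pass (1.48, 1.20 to 1.84).

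Further members of the glucocorticoid list also rose in several classes. Ddit4, an inhibitor of mTORC1 signalling, rose in 7 of 12, among them vascular endothelial cells (23.6 to 125 CPM, 5.32, 2.57 to 12.8) and interstitial macrophages (12.9 to 64.8 CPM, 5.04, 2.37 to 11.9), while neutrophils had 96.1 and 99.4 CPM. Per1, a clock gene that glucocorticoids also induce, rose in 6 of 12 classes, with 14.7 and 140 CPM in vascular endothelial cells (9.51, 3.92 to 30.0) and 16.6 and 43.7 CPM in alveolar type 2 cells (2.63, 2.11 to 3.30). Tsc22d3, encoding the leucine zipper protein GILZ, rose in 6 of 12 classes. Dusp1, a phosphatase gene that glucocorticoids also induce, passed in 0 of 12. The hour at which the lungs were taken and any handling difference between the 2 groups are not in the labels, and their part in these values was not tested.

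Among mitophagy genes other than Fundc1, Pink1 (chr4:138313409-138326307, minus strand) was higher in the knockout in 12 of 12 classes, by log2 ratios of 0.40 to 1.21, and rose in 7. In classical monocytes it went from 33.2 to 66.0 CPM (1.99, 1.70 to 2.32), in conventional dendritic cells from 18.4 to 41.7 CPM (2.27, 1.43 to 3.67), and in vascular endothelial cells from 50.1 to 97.4 CPM (1.94, 1.12 to 3.55). In fibroblasts, its highest class, it was at 104 and 139 CPM (1.34, 1.02 to 1.77). With at least 100 UMIs asked over the pair, Pink1 passed in 1 class, and with cells thinned to one depth in 4. Bnip3l, a hypoxia-responsive mitophagy receptor, rose in 5 of 12 classes, with 83.9 and 139 CPM in alveolar macrophages (1.66, 1.55 to 1.78) and 36.3 and 55.8 CPM in alveolar type 2 cells (1.54, 1.30 to 1.81). Its relative Bnip3 rose in 1 of 9 classes, and its median log2 ratio was -0.04.

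The list of 20 mitophagy receptors and PINK1-Parkin genes had a median above 0 in 12 of 12 classes under both scalings. Without TMM scaling, its medians ran from 0.09 in fibroblasts to 0.58 in club cells. Of its 177 pairs, 15.8% were up and 1.13% down, where 9.07% and 4.52% of all pairs were. Phb2, an inner-membrane mitophagy receptor gene, passed in 0 of 12 classes (median log2 ratio -0.12), and so did Tax1bp1, an autophagy adaptor gene (0.17). Genes of mitochondrial fission and fusion showed 2.20% of 91 pairs up and 2.20% down. Core autophagy and lysosome genes had 8.86% of 271 pairs up, close to the 9.07% of all genes, and their median of 0.07 over classes turned to -0.0050 under TMM scaling.

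**Figure D3:**
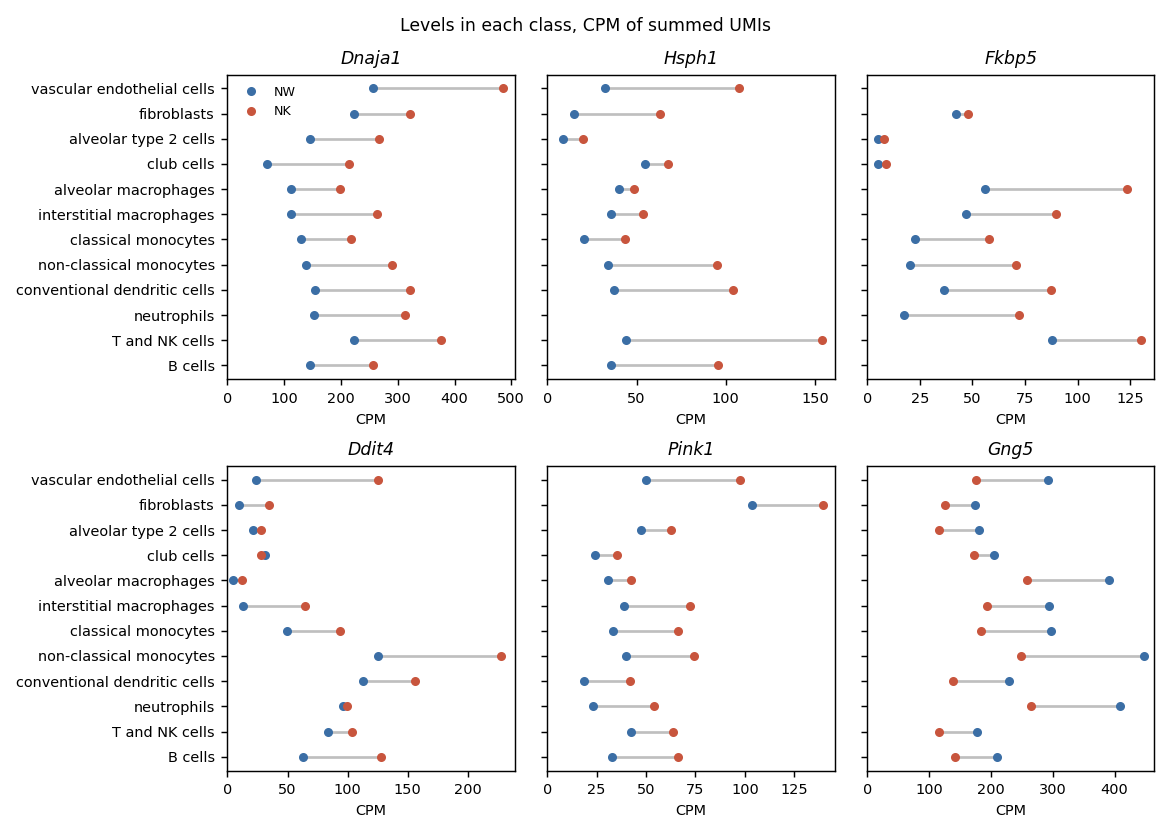
Level in CPM of 6 genes in each class where they were measured, with the wild-type (NW, blue) and the knockout (NK, red) library joined by a line. Dnaja1 and Pink1 are higher in the knockout in all 12 classes, and Gng5 is lower in all 12.

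The genes that rose in most classes were of more than 1 kind. In 9 of the 53, the knockout level was within 3-fold of that of the highest class in most classes: Dnaja1, Hsph1, Fkbp5, Pink1, Ddit4, Ccdc117, Banp, Mier3 and Chpf2, the last 4 named here after their values were seen. In 24 of the 53, every other class was more than 3-fold below the highest one. These were genes typical of 1 cell type that also counted as risen in cells of other types.

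Gzma, the granzyme A gene of cytotoxic lymphocytes, is of the second kind. In T and natural killer cells it was at 849 and 1164 CPM and did not pass (1.37, 1.28 to 1.47). It rose in the 7 other classes where it was measured, all at low levels, for example from 11.1 to 26.3 CPM in alveolar macrophages (2.36, 1.98 to 2.83) and from 11.1 to 58.6 CPM in fibroblasts (ratio 5.27). Ccl5, a chemokine gene of the same lymphocytes, rose in 10 of 12 classes, from 1437 to 2170 CPM in T and natural killer cells and from 33.7 to 58.2 CPM in alveolar macrophages. Satb1, a chromatin organiser of T cells, was at 199 and 185 CPM in T and natural killer cells and rose in 6 of 9 classes, from 3.71 to 10.6 CPM in alveolar macrophages.

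Several marker lists of whole cell types were also higher in the knockout outside their own class. Some genes of these lists, Gzma and Kdr among them, were also used to remove mixed cells. The levels outside the own class are therefore those that this rule left. It removed 29.2% of wild-type and 33.7% of knockout cells, and its part in these list values was not tested. The natural killer list was higher in the knockout in 11 of 11 other classes (median 33.8 and 75.3 summed CPM), the B cell list in 11 of 11 (84.5 and 156), the endothelial list in 11 of 11 (110 and 163) and the alveolar type 2 list in 10 of 11 (3340 and 3956). T and natural killer cells and vascular endothelial cells were also a larger share of the knockout library, while the share ratios of B cells (1.03) and alveolar type 2 cells (1.04) had intervals that included 1. Other lists did not follow. The neutrophil list was higher in 1 of 11 other classes (922 and 823) and the club list in 4 of 11 (2246 and 2157). The ciliated list was higher in 4 of 11 (339 and 303) and the interstitial macrophage list in 6 of 11. Club cells were a larger share of the knockout library. In the knockout, Dnaja1 was within 3-fold of its highest class in all 12 classes, and Gzma in its highest class alone. How far RNA from other cells entered these class sums was not tested gene by gene, for Dnaja1 or for Gzma.

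Lyz1, a lysozyme gene of alveolar type 2 cells, rose in 9 of 12 classes but went from 3787 to 4568 CPM in alveolar type 2 cells without passing. In interstitial macrophages it went from 237 to 1334 CPM (5.62, 4.74 to 6.70), and it fell in fibroblasts, from 65.4 to 39.0 CPM. Glul, which encodes glutamine synthetase, rose in 8 of 12 classes, most in alveolar type 2 cells (45.7 to 142 CPM, 3.10, 2.72 to 3.54), and stood at 145 and 117 CPM in vascular endothelial cells. Cyp4f18, a leukotriene-inactivating cytochrome P450 gene of myeloid cells, rose in 7 of 10 classes, in classical monocytes from 101 to 219 CPM (2.17, 1.99 to 2.36), and was at 340 and 386 CPM in neutrophils.

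**Figure D4:**
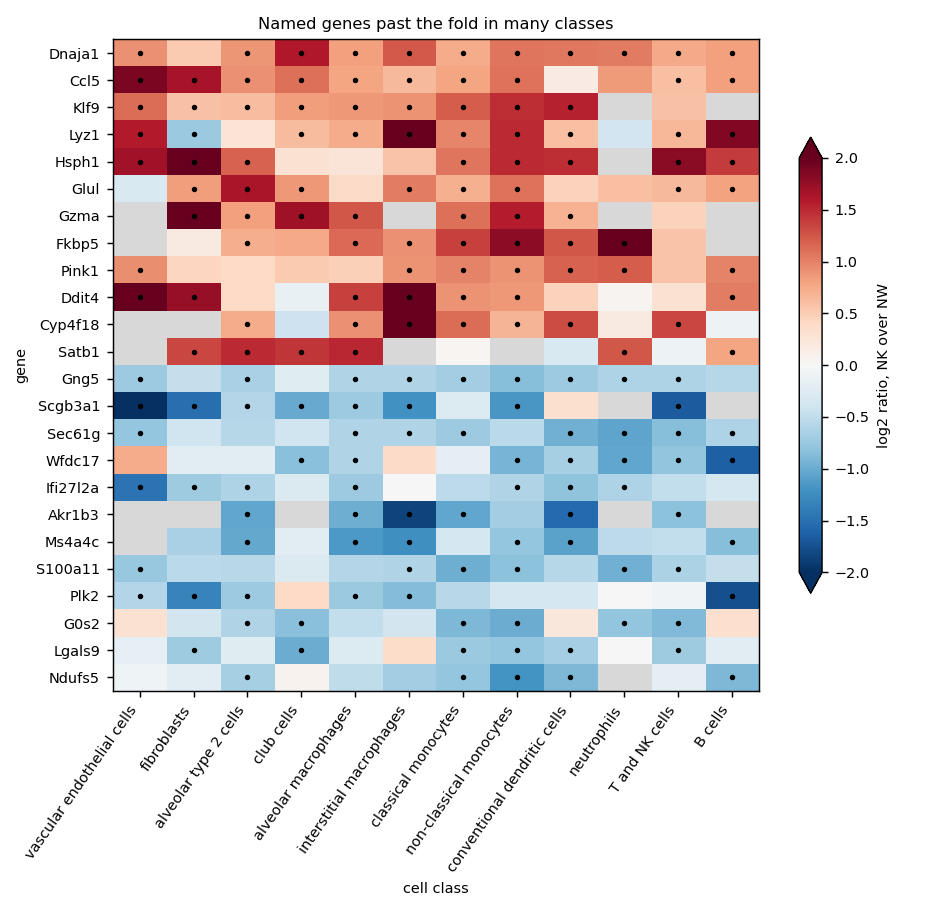
Log2 ratio of knockout to wild-type CPM for 12 genes that rose and 12 that fell in many classes, by lung class, without mitochondrial, ribosomal, immunoglobulin and unnamed predicted genes, with dots where the fold was passed and grey cells where fewer than 30 UMIs were counted (NK is the knockout, NW the wild type). Dnaja1 is above 0 in 12 of 12 classes and Gng5 below 0 in 12 of 12.

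Among the genes that fell, Gng5 (chr3:146499807-146505572, plus strand), a gamma subunit of heterotrimeric G proteins, was lower in 12 of 12 classes and fell in 9, with a median log2 ratio of -0.62. Its wild-type levels ran from 174 to 448 CPM and its knockout levels from 115 to 265 CPM. In alveolar macrophages it went from 392 to 259 CPM (0.662, 0.637 to 0.688), and in classical monocytes from 298 to 185 CPM (0.620, 0.576 to 0.667). Sec61g, a subunit of the translocon that passes new proteins into the endoplasmic reticulum, was also lower in 12 of 12 classes and fell in 8. It went from 233 to 141 CPM in classical monocytes (0.605, 0.556 to 0.657) and from 174 to 89.4 CPM in conventional dendritic cells (0.514, 0.412 to 0.639). In cells thinned to one depth Gng5 fell in 3 classes and Sec61g in 5, and at a 2-fold limit in 0 and 1.

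Akr1b3, the aldose reductase gene, fell in 6 of 7 classes with a median log2 ratio of -1.04, from 82.1 to 41.5 CPM in alveolar macrophages (0.505, 0.461 to 0.554). S100a11, a calcium-binding protein gene, was lower in 12 of 12 classes and fell in 6, from 1462 to 741 CPM in classical monocytes (0.507, 0.489 to 0.525). Wfdc17, expressed by monocytes and neutrophils, fell in 7 of 12 classes, in neutrophils from 1892 to 916 CPM (0.484, 0.424 to 0.551), but was higher in interstitial macrophages, at 646 and 840 CPM. Ms4a4c, a gene of classical monocytes, fell in 6 of 11 classes and was at 635 and 497 CPM in classical monocytes, where it did not pass. Plk2, G0s2 and Lgals9 each fell in 6 of 12 classes, and Ndufs5, a subunit gene of respiratory complex I, in 5 of 11. S100a11, Plk2, G0s2, Lgals9 and Ndufs5 thus did not fall in most of their classes. The predicted genes Gm11942 and Gm28438, named after their values were seen, fell in 12 and 11 of 12 classes.

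Transcripts of the mitochondrial genome were lower in the knockout in every class. The 7 genes measured out of 13 had a list median below 0 in 12 of 12 classes, also under TMM scaling. Without TMM scaling, the medians ran from -0.88 in neutrophils to -0.30 in club cells. Of 83 pairs, 38.6% were down and 1.20% up, where 4.52% and 9.07% of all pairs were. mt-Nd5, a complex I subunit gene, fell in 10 of 12 classes, from 520 to 252 CPM in alveolar macrophages (0.485, 0.468 to 0.503) and from 1820 to 1066 CPM in alveolar type 2 cells (0.586, 0.569 to 0.603). mt-Cytb, of complex III, fell in 7 of 12, from 2152 to 1152 CPM in alveolar macrophages (0.535, 0.526 to 0.544). mt-Nd6, encoded on the other strand of the mitochondrial genome, rose in 1 class and fell in 1 of 11, with a median log2 ratio of 0.05.

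Nuclear genes of oxidative phosphorylation shifted less. Their list median was below 0 in 11 of 12 classes and above it in club cells (0.20), which turned below 0 under TMM scaling. Of 904 pairs, 7.85% were down and 1.44% up, where 4.52% and 9.07% of all pairs were. Cytosolic ribosomal protein genes were likewise below 0 in 11 of 12 classes and in 12 under TMM scaling, with 3.24% of 926 pairs down, under the 4.52% of all genes. Rpl36 fell in 5 of 12 classes. Short transcripts as a whole were lower than long ones: over 2911 genes measured in all 12 classes, the quintile of shortest transcripts had a median log2 ratio below that of the quintile of longest ones in 12 of 12 classes. The medians were -0.11 to 0.26 for the shortest quintile and 0.07 to 0.41 for the longest. The part of transcript length in the shifts of Gng5, Sec61g, Ndufs5 and the ribosomal genes was not tested.

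Interferon response genes were lower in more classes than not. The list median was below 0 in 9 of 12 classes, from -0.48 in conventional dendritic cells to 0.36 in interstitial macrophages (10 of 12 under TMM scaling). Of 295 pairs, 16.9% were down and 4.75% up, where 4.52% and 9.07% of all pairs were. In conventional dendritic cells 12 of 32 measured members fell, and in classical monocytes 1 of 34, where 5.56% and 3.86% of all measured genes did. The dendritic class depended on the clustering: with these 2 libraries clustered alone it held 96 wild-type and 111 knockout cells, against 211 and 210. Ifi27l2a, a strongly interferon-induced gene, was lower in 12 of 12 classes and fell in 7, from 735 to 419 CPM in conventional dendritic cells (0.569, 0.514 to 0.630), while in classical monocytes it was at 2630 and 1839 CPM and did not pass. Ifitm3, which restricts virus entry, fell in 4 of 12 classes, from 1518 to 751 CPM in conventional dendritic cells (0.495, 0.460 to 0.533), and was at 526 and 764 CPM in interstitial macrophages. Xaf1 fell in 4 of 11 classes. Bst2, by contrast, rose in 4 of 12.

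Inflammatory cytokine and chemokine genes had a list median below 0 in 8 of 12 classes. Of 305 pairs, 12.5% were down and 7.21% up, where 4.52% and 9.07% of all pairs were. Il1b, the interleukin-1 beta gene, fell in 4 of 12 classes, from 587 to 357 CPM in classical monocytes (0.607, 0.576 to 0.640) and from 546 to 326 CPM in non-classical monocytes (0.597, 0.505 to 0.704). In neutrophils, where it was highest, it was at 5028 and 4345 CPM.

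**Figure D5:**
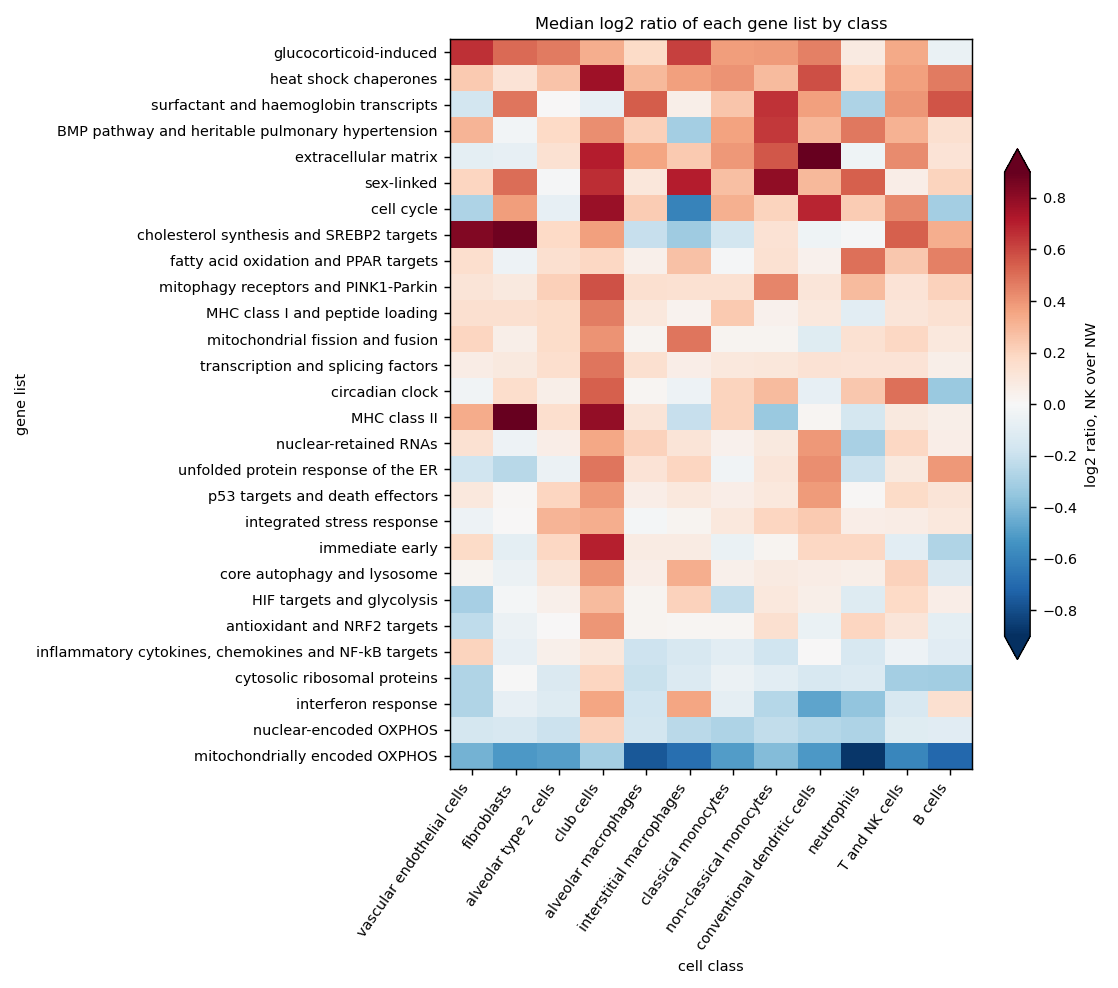
Median log2 ratio of knockout to wild-type CPM of each of 28 gene lists in each lung class (NK is the knockout, NW the wild type). Heat shock and mitophagy lists are above 0 in 12 of 12 classes, and the mitochondrially encoded list is below 0 in 12 of 12.

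Genes of the BMP pathway and of heritable pulmonary hypertension were examined because of the disease setting of the series. The list median was above 0 in 10 of 12 classes. Of its 168 pairs, 19.0% were up and 4.17% down, where 9.07% and 4.52% of all pairs were. The members that rose in the most classes did so outside the endothelium. Aqp1, a water channel of endothelial cells, rose in 6 of 8 classes but was at 2554 and 2691 CPM in vascular endothelial cells (1.05, 0.970 to 1.15). Kdr, the VEGF receptor 2 gene, rose in 3 of 5 classes, in classical monocytes from 3.16 to 7.87 CPM, and was at 1289 and 1417 CPM in vascular endothelial cells. Acvrl1, the endothelial BMP9 receptor, was at 1377 and 1521 CPM there (1.10, 0.987 to 1.24). Bmpr2, the type 2 BMP receptor, rose in 2 of 11 classes (median log2 ratio 0.33). The endothelial marker list was higher in 11 of 11 other classes, as given above, and its part in these counts was not tested. Bmp4, a ligand of the pathway, fell in 3 of 5 classes and rose in 1.

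Cholesterol and MHC class II genes moved in particular classes. Cholesterol synthesis genes had their highest median in fibroblasts (0.88), where 12 of 16 members rose, and 0.83 in vascular endothelial cells, where 3 of 6 did. Of all measured genes, 6.01% rose in fibroblasts and 7.63% in vascular endothelial cells. Hmgcs1, the cytosolic HMG-CoA synthase gene, went from 74.1 to 186 CPM in fibroblasts (2.52, 1.88 to 3.41), and Cyp51, a sterol demethylase gene, from 35.8 to 105 CPM (2.92, 1.93 to 4.56). In alveolar macrophages the cholesterol list had a median of -0.21, with 0 of 20 up and 4 down, where 5.28% and 3.26% of all measured genes were. MHC class II genes had a median of 1.55 in fibroblasts, where 7 of 7 measured members rose, H2-Ab1 from 81.5 to 270 CPM (3.31, 2.53 to 4.39). In conventional dendritic cells H2-Ab1 was at 11971 and 12738 CPM, and the list median was 0.02. Lists of cells that carry MHC class II were also higher in knockout fibroblasts: the B cell list went from 87.7 to 169 CPM, the list of type 2 conventional dendritic cells from 95.1 to 130 CPM, that of type 1 from 220 to 270 CPM and the alveolar macrophage list from 314 to 451 CPM. The interstitial macrophage list was at 1832 and 1733 CPM. The natural killer list went from 18.5 to 114 CPM, and the part of these cells in the fibroblast values was not tested.

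Shifts of 1 class met the naming rule for 3 genes, which asked for 100 cells a library, 50 CPM in one library and a level within 3-fold of that of the highest class. Itgb1, the integrin beta 1 chain, rose in B cells from 214 to 533 CPM (2.49, 2.05 to 3.04), with ratios of 0.897 to 1.24 in the other 11 classes. Ppp1ca, a catalytic subunit of protein phosphatase 1, fell in non-classical monocytes from 654 to 371 CPM (0.567, 0.486 to 0.661), with ratios of 0.826 to 1.13 elsewhere. Mob3b, a kinase activator gene, fell in conventional dendritic cells from 52.0 to 26.8 CPM (0.516, 0.339 to 0.770), with ratios of 0.924 to 1.46 in the other 5 classes where it was measured.

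Further shifts of 1 class fell outside that rule, in classes of under 100 cells or in classes where the gene was low, and are named after their values were seen. In vascular endothelial cells, which had 54 wild-type cells, Klf4, a Krüppel-like factor of quiescent endothelium, rose from 531 to 1381 CPM (interval of the ratio 2.21 to 3.07), with ratios of 0.762 to 1.39 in other classes. Cdkn1a, the gene of the cell cycle inhibitor p21, rose there from 333 to 912 CPM (2.74, 2.23 to 3.38), with ratios of 1.00 to 1.49 elsewhere. S100a6, a calcium-binding protein gene, fell there from 392 to 180 CPM. Endothelial cells were thus the class where Klf4 and Cdkn1a were highest and also rose. The red cell list summed to 11763 CPM in wild-type and 142 CPM in knockout endothelial cells, and its part in these values was not tested.

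In club cells 8 genes rose alone, among them the apolipoprotein gene Apoe (33.8 to 107 CPM) and the HSP90 gene Hsp90ab1 (1037 to 1702 CPM). Their log2 ratios of 0.59 to 1.66 stand against the club median of 0.39. In fibroblasts Lyz2, a lysozyme gene of macrophages and alveolar type 2 cells, rose from 816 to 1231 CPM and the leukocyte gene Cd52 from 70.4 to 110 CPM, at 4.22% and 5.00% of their highest class in the knockout. The general leukocyte list in fibroblasts went from 553 to 871 CPM, and its part was not tested.

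The same genotype comparison in mice given hypoxia with SU5416 is set beside these values, with 1 library a side and the same rule within each class. The rule over classes was looser there: a gene needed to be measured in 1 or more classes of that pair, against at least 6 in normoxia. Of the 53 genes that rose in most classes in normoxia, 2 also rose in most classes of that pair, and 0 fell in most. Of all 7986 genes, 0.526% rose and 0.213% fell in most classes there. The 2 genes, named after their values were seen, were Ngp (3 of 4 classes there) and Camp (4 of 4). Neither was measured in 6 classes of that pair. In normoxia both were highest in neutrophils, at 9410 and 12734 CPM in the knockout, and every other class was more than 3-fold below. Of the 15 that fell in most classes in normoxia, Fundc1 not counted, 0 fell in most classes there and 1, Scgb3a1, rose in most. Dnaja1 rose in 1 of 9 classes there (median log2 ratio 0.21), Hsph1 in 1 of 9 (0.12), Klf9 in 2 of 7 (0.08), Fkbp5 in 2 of 6 (0.48), Ddit4 in 2 of 7 (0.30) and Pink1 in 0 of 8 (-0.17). Gng5 passed in 0 of 9 classes (0.18). Whether the genotype differences differ between the 2 conditions was not tested, since each rests on 1 pair of libraries.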

How the data were processed

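Lungs were digested to single cells and captured in microwells for UMI-tagged polyA libraries, per the labels' protocols. The authors deposited, for each library, a matrix of raw UMI counts per gene and cell. The submitters' processing notes name STAR 2.6.1a, cutadapt 1.17, Scanpy and featureCounts 2.0.1, and the builds GRCm38 and mm10. Their order and settings are not given in the sources used here.

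Cells with at least 200 genes and at most 20% mitochondrial UMIs were kept, which removed 1 knockout cell. All 4 libraries were clustered together (scanpy 1.11.5, 2000 variable genes, 40 components, 20 neighbours, leidenalg 0.10.2 at resolution 2). Scrublet called 4 and 1 cells, too few, so cells were also removed when markers of a second lineage, at 3 or more UMIs, reached 0.15 of that lineage's usual level. Resolution and this rule were set after the clusters were seen and before any ratio was computed. Unnamed clusters held 2.00% and 2.32% of kept cells. The largest cluster differed between the libraries in alveolar macrophages, classical monocytes, club cells and conventional dendritic cells. Coordinates and transcript lengths are those of GRCm38.

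UMIs were summed per class, and ratios of CPM were given exact conditional binomial intervals (scipy 1.17.1), with 0.5 UMI added for log2 values. The procedure was tested on simulated data. Genes named as shared are the 12 that rose and the 12 that fell in the most classes, leaving out mitochondrial, ribosomal protein, haemoglobin, immunoglobulin, T cell receptor, sex-linked and unnamed predicted genes. Shifts of 1 class were named in classes with at least 100 cells a library, for genes at 50 CPM or more in one library and within 3-fold of their highest class. Up to 4 members were to be named per list; others named with their values, such as Hspe1, Bst2, Bmp4 and Bnip3, were chosen after those were seen. The members and lists were chosen with earlier results of these data known. Alternatives were TMM scaling (edgeR 4.0.16), totals without mitochondrial, ribosomal and haemoglobin genes, Scrublet calls alone, 1 UMI minimum, thinning to 3775 UMIs, a mean over cells, clustering of the 2 libraries alone, other count minima, a 2-fold limit, and clusters weighted alike, the last chosen after seeing the data.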

Additional observations from a re-analysis of the deposited data

Results flagged for a closer look

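Scgb3a1, a secretoglobin gene of airway secretory cells, differed in opposite directions in the 2 genotype comparisons. In normoxia it fell in 8 of 10 classes of the knockout, with a median log2 ratio of -1.09, and in club cells it went from 7777 to 3853 CPM (0.495, 0.483 to 0.509). In hypoxia with SU5416 it rose in 8 of 9 classes, with a median log2 ratio of 1.08. The difference was not tested. In the normoxic pair its level outside club cells was at most 171 CPM in wild type, in vascular endothelial cells, where it went to 19.8 CPM. Scgb3a1 was also among the genes used to remove mixed cells, so its levels outside club cells are those that this rule left.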

How the results depend on the processing

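No paired analysis was possible because each group is 1 pooled library. Counts of genes past the fold, summed over classes, were 8757 higher and 4361 lower, and became 5123 and 2899 with thinned cells, 4003 and 1886 at 100 UMIs, and 3636 and 1936 at 2-fold. The 53 genes that rose in most classes became 33 with TMM, 85 with Scrublet calls alone (18 of the 53 among them), 21 with thinned cells, 16 at 100 UMIs and 7 at 2-fold. The 16 that fell became 30 with TMM, 46 with Scrublet calls alone and 6 at 2-fold. Upward shifts of 1 class (23) became 46 with Scrublet calls alone, 42 with a mean over cells and 41 at 100 UMIs. Downward ones (11) became 19 with TMM, 17 with 1 UMI minimum, 5 with thinned cells, 18 with a mean over cells and 22 at 2-fold.

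With TMM, the median over classes of mitochondrially encoded genes moved from -0.52 to -0.64, and that of core autophagy and lysosome genes turned from 0.07 to -0.0050. Share ratios with Scrublet calls alone were 1.62 for vascular endothelial cells, 1.20 for club cells and 1.13 for conventional dendritic cells. With 1 UMI minimum they were 1.09 for fibroblasts, 1.62 for alveolar macrophages, 0.393 for non-classical monocytes, 0.497 for neutrophils and 1.20 for T and natural killer cells. With the 2 libraries clustered alone the neutrophil ratio was 1.56, but only 12 wild-type and 21 knockout cells were then named neutrophils, against 83 and 71. The cause of these changes was not tested, other than that thinning and higher minima leave fewer genes and cells.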

Other observations

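Over all kept cells, 7 genes other than Fundc1 with at least 60 UMIs over the pair, predicted genes aside, differed by at least 8-fold, and few cells carried each. Mpo, the myeloperoxidase gene of granulocyte precursors, had 653 UMIs in wild type and 5 in the knockout, with 94.8% of the wild-type UMIs in 5 cells. Elane, the neutrophil elastase gene, had 215 and 22 UMIs, with 80.0% in 5 cells. The mast cell tryptase genes Tpsb2 (80 and 0 UMIs) and Tpsab1 (83 and 1) came from 2 and 4 wild-type cells. Calca, a neuropeptide gene of pulmonary neuroendocrine cells, had 7 and 72 UMIs, and Resp18, a gene of endocrine secretory granules, 1 and 61 UMIs, with 84.7% and 93.4% of the knockout UMIs in 5 cells. Cd5l, a macrophage gene, had 0 and 78 UMIs, and 74.4% of the latter were in interstitial macrophages. In the library where each was higher, 96.5% of Mpo and 80.5% of Elane UMIs were in cells named alveolar macrophages. Cells named conventional dendritic cells held 98.75% of Tpsb2 and 96.4% of Tpsab1 UMIs, and those named club cells 87.5% of Calca and 82.0% of Resp18 UMIs. The named classes thus also held a few cells with genes typical of other types.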
